A study of Homo sapiens with 12 samples.

Results

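The platelet-derived growth factor (PDGF) system of human cells comprises 2 receptor genes, PDGFRA and PDGFRB, and 4 ligand genes, PDGFA, PDGFB, PDGFC and PDGFD. These 6 genes were picked by symbol from an expression table of 58365 gene lines carrying 56593 distinct symbols, and each symbol was found. All 6 passed the filter on low values, as did 14840 genes in all, so no member is missing from the tests. The table held FPKM values, that is, sequenced fragments scaled to the length of the transcript and to the mapped fragments of the library, from 12 RNA-seq libraries of the human embryonic stem cell line H1, with 3 libraries in each of 4 populations. The first population was undifferentiated H1 cells. The others were H1 derivatives taken along 1 stepwise protocol toward blood, given activin A with BMP4 and then VEGF with bFGF: APLNR+ cells of day 2, which carry the apelin receptor and stand for mesoderm, CD31+CD34+ cells of day 5, the hemogenic endothelial progenitors, and CD43+ cells of day 8, the hematopoietic progenitors. PDGF is not among the factors listed as added. All libraries came from 1 cell line and each differentiated population was collected by its surface antigen, so the populations differ in day, medium and selection at once and these cannot be told apart.

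PDGF ligands are secreted dimers that act on neighbouring cells. PDGF-AA, the dimer of PDGFA chains, binds receptor dimers that contain the alpha chain, whereas PDGF-BB engages both chains, PDGF-CC acts mainly through the alpha chain and PDGF-DD mainly through the beta chain. PDGFC and PDGFD are released in a latent form whose CUB domains must be cut off before the growth factor domain can bind. In the embryo, PDGFRA marks much of the paraxial and lateral mesoderm, and PDGFRB marks pericytes and vascular smooth muscle cells that are recruited by PDGFB from endothelium. PDGFB is also stored in platelets and their precursors, the megakaryocytes.

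The genes lie on chromosomes 4 (PDGFRA and PDGFC), 5 (PDGFRB), 7 (PDGFA), 22 (PDGFB) and 11 (PDGFD), and only PDGFRA is on the plus strand. By the GENCODE v29 annotation of GRCh38, no protein-coding gene lies between PDGFRA and KIT, 360 kb away, nor between KIT and KDR, 338 kb further. CSF1R and PDGFRB are direct neighbours on the same strand, with 464 bases between them. All 5 genes encode receptor tyrosine kinases.

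Of the 6 members, 4 had an entry among the RefSeq promoter windows of build GRCh38.p14, in 8 windows. The upstream sequences of both receptor genes are shown because PDGFRA and PDGFRB were the members that rose together at the first step. They are written 5′ to 3′ on the strand of the gene, and capitals mark every match to a CCAAT box (CCAAT), an E box (CAGCTG) or a GC box (GGGCGG), searched on both strands. The PDGFRA window, chr4:54233710-54233959 on the plus strand, precedes the downstream of its 2 RefSeq starts. The PDGFRB sequence, chr5:150155873-150156095 on the minus strand, omits the 27 bases of its window that overlap an annotated exon.
PDGFRA: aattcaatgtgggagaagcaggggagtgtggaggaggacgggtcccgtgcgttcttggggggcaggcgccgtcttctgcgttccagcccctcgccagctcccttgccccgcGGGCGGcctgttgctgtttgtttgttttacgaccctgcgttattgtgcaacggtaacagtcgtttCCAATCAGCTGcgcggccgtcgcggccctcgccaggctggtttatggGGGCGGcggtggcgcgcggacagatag
PDGFRB: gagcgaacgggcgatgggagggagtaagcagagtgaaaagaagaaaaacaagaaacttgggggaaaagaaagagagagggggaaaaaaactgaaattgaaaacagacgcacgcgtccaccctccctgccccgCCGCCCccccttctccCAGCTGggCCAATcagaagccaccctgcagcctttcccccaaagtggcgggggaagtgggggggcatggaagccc

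Both receptor windows held all of these motifs. Counted from the RefSeq start, the PDGFRA window had CCAAT at -74 to -70 and CAGCTG directly after it at -69 to -64, with GC boxes beginning at -139 and -27. In the PDGFRB window the order was turned, with CAGCTG at -102 to -97, CCAAT at -94 to -90 and the GC box, read from the other strand, at -118 to -113. Over 35116 windows of the same 250 bases, 32.0% held CCAAT, 14.0% CAGCTG and 42.6% the GC box, and 1.54% held all of them. None of the 8 member windows matched a GATA motif (AGATAA, in 9.17% of all windows), a TATA box (TATAAA, 10.7%) or a SOX motif (ACAAAG or ACAATG, 21.2%), whereas an ETS motif (CCGGAA, 14.5%) and a CArG box (1.16%) each occurred in 1 PDGFA window. The window at the upstream PDGFRA start held none of the 8 motifs searched. The PDGFRA sequence shown ends in agatag, which differs from the GATA form searched in its last base and was not counted. The likeness of the receptor windows was noticed on inspection, and a match of letters is not a bound site.

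PDGFRA, the alpha receptor, had a single peak in APLNR+ cells. It was at 1.73, 1.70 and 1.74 FPKM in the H1 libraries (replicates 1 to 3) and at 18.3, 19.7 and 18.4 FPKM in the APLNR+ libraries. It was at 3.89, 4.26 and 4.59 FPKM in CD31+CD34+ cells and at 0.704, 1.09 and 1.38 FPKM in CD43+ cells. No pair of populations overlapped, and each CD43+ library lay below each H1 library. The mean level rose from 1.72 ± 0.0163 to 18.8 ± 0.811 FPKM (SD, n = 3 each), a 10.9-fold difference, then fell to 4.24 ± 0.348 and to 1.06 ± 0.341 FPKM.

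On the log2(FPKM + 1) scale used for every test, which understates changes of low genes, PDGFRA rose by 2.86 ± 0.12 (SE; limma adjusted p = 1.22e-09) from H1 to APLNR+ cells. It fell by 1.92 ± 0.12 in CD31+CD34+ cells (limma adjusted p = 3.42e-08) and by a further 1.36 ± 0.12 in CD43+ cells (limma adjusted p = 1.26e-06). A gene was called changed at an adjusted p below 0.05 together with a change of at least 2-fold, or 1 on this scale. The difference between the ends of the protocol, -0.42 ± 0.12 for CD43+ cells against H1 (limma adjusted p = 0.00660), was under 2-fold and was not called. In the order of levels, all neighbours of PDGFRA were thus separated beyond the spread of their libraries, although on this scale only the gap below APLNR+ cells exceeded 2-fold.

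In bulk libraries such as these, fewer cells of a type and less RNA per cell cannot be told apart. The mesoderm markers (10 genes, among them MESP1, EOMES and MIXL1) summed to between 2.29 and 2.51 FPKM in H1 libraries, 587 and 645 in APLNR+, 409 and 464 in CD31+CD34+ and 25.3 and 30.1 in CD43+ libraries. APLNR itself, the antigen of the sort, made up most of these sums from day 2 on, at means of 383, 403 and 23.7 FPKM. EOMES, a transcription factor of the primitive streak, was highest in APLNR+ cells, with means of 0.0684, 56.5, 4.14 and 0.0122 FPKM in the order of the protocol. In APLNR+ against H1 cells 9 of the 10 were higher in every library and PDGFRL was lower. In CD31+CD34+ against APLNR+ cells 8 were lower in every library and 2 overlapped. The endoderm markers (8 genes) summed to 0.877 to 1.50 FPKM in H1, 79.8 to 84.2 in APLNR+, 87.0 to 91.9 in CD31+CD34+ and 28.2 to 35.0 in CD43+ libraries. GATA6, SOX17 and GATA4 led them in APLNR+ cells at 42.0, 17.5 and 15.3 FPKM. FOXA2, a defining endoderm factor, was at 0.392 FPKM there and at 0.0132 FPKM in H1 cells. In APLNR+ against H1 cells 7 of the 8, FOXA2 among them, were higher in every library and 1 overlapped. In CD31+CD34+ against APLNR+ cells 6 were higher and 2 lower. In these comparisons the libraries did not overlap, in either direction, for 66.0% and 75.7% of all genes tested. The part of these cell types in the PDGFRA result was not tested.

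PDGFRA shares 1533 of its 9732 annotated exon bases (15.8%) with AC058822.1, a gene model on the same strand. That model was itself at 0.172, 1.68, 0.770 and 0.0857 FPKM on average in H1, APLNR+, CD31+CD34+ and CD43+ cells, below PDGFRA in each. How fragments of the shared bases were divided is not stated.

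PDGFRB, the beta receptor, rose at the first step and stayed up. Its levels were 2.52, 2.83 and 4.01 FPKM in H1 libraries and 10.3, 12.8 and 11.2 FPKM in APLNR+ libraries. It was at 15.5, 13.2 and 11.0 FPKM in CD31+CD34+ libraries and at 12.5, 20.6 and 19.3 FPKM in CD43+ libraries. All H1 libraries lay below all others, and the 3 differentiated populations overlapped with their neighbours. The means were 3.12 ± 0.788, 11.4 ± 1.23, 13.2 ± 2.27 and 17.5 ± 4.38 FPKM (SD, n = 3 each).

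PDGFRB rose by 1.60 ± 0.19 in APLNR+ against H1 cells (limma adjusted p = 1.95e-05). The next differences, 0.19 ± 0.19 (limma adjusted p = 0.393) and 0.36 ± 0.19 (limma adjusted p = 0.137), were not called, and the libraries overlapped. The last of them depended on replicate 1. It was 0.57 (limma adjusted p = 0.0163) without CD43+ replicate 1, 0.23 (limma adjusted p = 0.387) without CD43+ replicate 2 and 0.68 (limma adjusted p = 0.00532) with replicates 2 and 3 alone, a choice made after the data were seen, each under 2-fold. From end to end, PDGFRB was 5.59-fold higher in CD43+ cells than in H1 cells, at 2.15 ± 0.19 (limma adjusted p = 5.95e-07). CD43+ cells also stood 0.55 ± 0.19 above APLNR+ cells with a limma adjusted p of 0.0219, but this was under 2-fold and the libraries overlapped. The widest spread was in CD43+ cells, where replicate 1, by an estimate from low values the shallowest library of that population, was lowest.

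PDGFRB is known in the vessel wall as a gene of pericytes and smooth muscle cells. The mural cell markers, 12 other genes of those cells, summed to 123 to 142 FPKM in H1 libraries, 519 to 650 in APLNR+, 691 to 755 in CD31+CD34+ and 109 to 136 in CD43+ libraries. These sums were led by TAGLN, which was at 76.4 FPKM in H1 and 15.7 FPKM in CD43+ cells, and their members went both ways. In APLNR+ against H1 cells, where PDGFRB was called higher, 9 of the 12 were higher in every library and 2 lower. For CD31+CD34+ against H1 cells, 10 were higher in every library and 1 lower. In CD43+ against H1 cells, 7 of the 12 were higher in every library, as PDGFRB was. Among them were ACTA2 (0.922 and 34.8 FPKM in H1 and CD43+ cells), MCAM, ANPEP (0.470 and 3.35 FPKM) and KCNJ8 (0.330 and 2.40 FPKM). The 4 markers CNN1, MYH11, NOTCH3 and TAGLN were lower and 1 overlapped. In CD43+ against CD31+CD34+ cells 2 were higher in every library and 9 lower. In these comparisons, in the order given, the libraries did not overlap, in either direction, for 66.0%, 79.0%, 76.3% and 58.0% of all genes tested. MYH11, which defines mature smooth muscle, did not exceed 0.328 FPKM in any library. The fibroblast and mesenchymal markers (9 genes) summed to between 171 and 221 FPKM in H1, 169 and 187 in APLNR+, 798 and 910 in CD31+CD34+ and 1076 and 1150 in CD43+ libraries, where S100A4, which blood cells also express, gave 907 FPKM. The part of either cell type in the PDGFRB result was not tested.

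**Figure D1:**
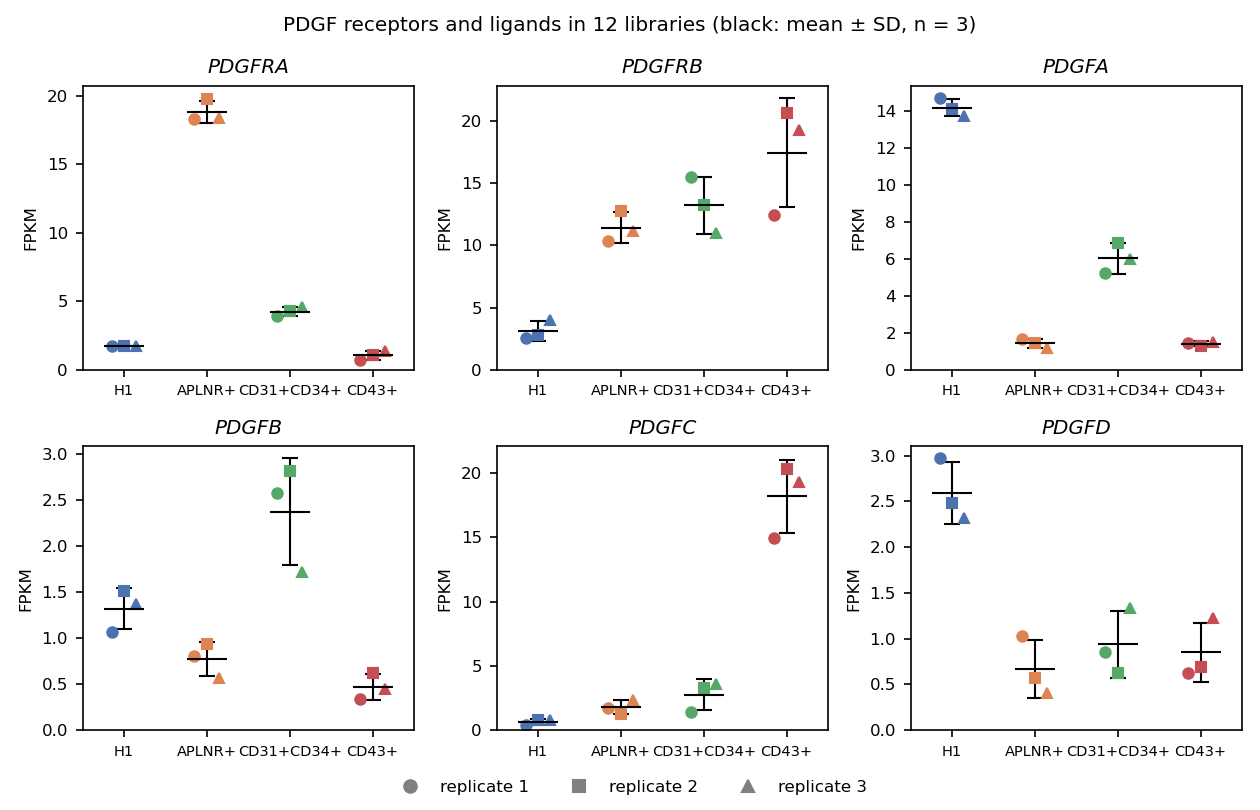
FPKM of the 6 PDGF genes in every library, by population along the protocol; points are libraries, shaped by replicate number, and the black bar and whiskers are the mean ± SD (n = 3). PDGFRA stands at 18.3 to 19.7 FPKM in APLNR+ cells alone, PDGFRB stays above 10 FPKM from APLNR+ cells on, PDGFA is highest in H1 cells and PDGFC in CD43+ cells; the vertical scales differ between panels.

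Because FPKM is scaled by transcript length, both receptors can be set side by side within a library. APLNR+ cells were the population in which PDGFRA exceeded PDGFRB, with FPKM ratios of 1.55 to 1.77 and a mean of 1.66 ± 0.113 (SD, n = 3). The ratio was 0.573 ± 0.129 in H1 cells, 0.331 ± 0.0842 at the hemogenic endothelial stage and 0.0604 ± 0.00991 among CD43+ progenitors. In CD43+ cells the beta receptor was therefore 16.8 ± 2.56 times as high as the alpha receptor, which was at 0.704 to 1.38 FPKM there. As log2 ratios of FPKM + 1, the populations averaged -0.58, 0.68, -1.43 and -3.15, and none of the 6 pairs of populations overlapped. Each pair gave an exact two-sided permutation p of 0.1, the smallest that 3 libraries against 3 allow, and 0.116 after adjustment over the 36 tests made on receptor ratios, summed ligands and ligand shares.

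PDGFA, the A chain, was the leading ligand of undifferentiated cells. H1 libraries had 14.7, 14.2 and 13.8 FPKM, and APLNR+ libraries 1.67, 1.43 and 1.17 FPKM. CD31+CD34+ libraries had 5.22, 6.89 and 6.01 FPKM, and CD43+ libraries 1.47, 1.27 and 1.51 FPKM. H1 cells were above CD31+CD34+ cells, these were above the other two, and APLNR+ and CD43+ cells overlapped. The means of 14.2 ± 0.463, 1.42 ± 0.254, 6.04 ± 0.834 and 1.42 ± 0.127 FPKM (SD, n = 3 each) fell, rose in part and fell again.

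PDGFA fell by 2.65 ± 0.11 at the first step (limma adjusted p = 1.51e-09), rose by 1.54 ± 0.11 in CD31+CD34+ cells (limma adjusted p = 1.40e-07) and fell by 1.54 ± 0.11 in CD43+ cells (limma adjusted p = 2.64e-07). The steps share populations, so a high or low level in 1 population enters the difference before it and the difference after it.

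PDGFB, the B chain, was low throughout, with its highest levels in CD31+CD34+ cells. The H1 libraries had 1.07, 1.51 and 1.37 FPKM and the APLNR+ libraries 0.809, 0.933 and 0.568 FPKM. The CD31+CD34+ libraries had 2.58, 2.82 and 1.72 FPKM and the CD43+ libraries 0.340, 0.623 and 0.442 FPKM. Only APLNR+ and CD43+ libraries overlapped. The means were 1.32 ± 0.224, 0.770 ± 0.185, 2.37 ± 0.578 and 0.468 ± 0.143 FPKM (SD, n = 3 each).

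PDGFB fell in CD43+ cells by 1.19 ± 0.14 against CD31+CD34+ cells (limma adjusted p = 1.90e-05). Its differences at the earlier steps, -0.39 ± 0.14 (limma adjusted p = 0.0313) and 0.92 ± 0.14 (limma adjusted p = 8.01e-05), were under 2-fold on this scale and were not called. The latter passed 2-fold without CD31+CD34+ replicate 3, the lowest of its group, at 1.07. The endothelial markers (9 genes) summed to 28.0 to 34.2 FPKM in H1, 52.8 to 70.0 in APLNR+, 483 to 662 in CD31+CD34+ and 283 to 374 in CD43+ libraries. The sums were led by KDR (277 FPKM in CD31+CD34+ and 110 in CD43+ cells). In CD43+ cells, where PDGFB was lowest, 4 of the 9 were lower than in CD31+CD34+ cells in every library and 2 overlapped. PECAM1 (55.2 and 95.9 FPKM in CD31+CD34+ and CD43+ cells), EMCN (0.396 and 3.84 FPKM) and CLDN5 (1.64 and 5.53 FPKM) were higher. Between these populations the libraries did not overlap, in either direction, for 58.0% of all genes tested. The megakaryocyte and platelet markers (9 genes), by contrast, summed to 7.45 to 10.6, 2.05 to 3.71, 13.6 to 20.2 and 740 to 802 FPKM in the same order, with ITGA2B at 575 FPKM in CD43+ cells, where PDGFB was lowest. The part of either cell type in the PDGFB result was not tested.

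PDGFC, the first of the CUB-domain ligands, was the ligand of CD43+ cells. It was at 0.384, 0.793 and 0.763 FPKM in H1 libraries and at 1.71, 1.28 and 2.33 FPKM in APLNR+ libraries. It was at 1.37, 3.29 and 3.62 FPKM in CD31+CD34+ libraries and at 14.9, 20.3 and 19.3 FPKM in CD43+ libraries. The lowest CD43+ library was thus above every other library, H1 cells were below the rest, and APLNR+ and CD31+CD34+ cells overlapped. Means were 0.647 ± 0.228, 1.77 ± 0.527, 2.76 ± 1.22 and 18.2 ± 2.87 FPKM (SD, n = 3 each).

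PDGFC rose by 2.40 ± 0.24 from CD31+CD34+ to CD43+ cells (limma adjusted p = 4.20e-06), a 6.60-fold difference of means, and stood 3.54 ± 0.24 above H1 cells at the end (limma adjusted p = 4.19e-08). The earlier differences were 0.74 ± 0.24 (limma adjusted p = 0.0178) and 0.40 ± 0.24 (limma adjusted p = 0.151). The former was under 2-fold on the log2(FPKM + 1) scale and was not called, while the means in FPKM differed 2.74-fold. Replicate 1 was the lowest PDGFC value in H1, CD31+CD34+ and CD43+ cells. By the estimate from low values, replicate 1 was also the shallowest library of every population. Not every member was lowest there, as PDGFA and PDGFD were highest in replicate 1 in H1 and APLNR+ cells. The part of depth was not tested. Without CD31+CD34+ replicate 1 the second difference was 0.70 (limma adjusted p = 0.00521), without CD31+CD34+ replicate 3 it was 0.22 (limma adjusted p = 0.453), and with replicates 2 and 3 alone it was 0.69 (limma adjusted p = 0.00577), each still under 2-fold on that scale. It was 0.26 (limma adjusted p = 0.389) without APLNR+ replicate 2. The blood progenitor markers (7 genes) summed to 1.85 to 2.64 FPKM in H1, 5.41 to 5.89 in APLNR+, 36.0 to 43.9 in CD31+CD34+ and 237 to 314 in CD43+ libraries. Of the 7, 6 were higher in every CD43+ than in every CD31+CD34+ library, like all 9 platelet markers. Between these populations the libraries did not overlap, in either direction, for 58.0% of all genes tested. The part of the cell types of these markers in the PDGFC result was not tested.

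PDGFD, the other CUB-domain ligand, was highest in H1 cells. H1 libraries had 2.97, 2.48 and 2.31 FPKM and APLNR+ libraries 1.02, 0.567 and 0.406 FPKM. CD31+CD34+ libraries had 0.851, 0.625 and 1.34 FPKM and CD43+ libraries 0.628, 0.693 and 1.22 FPKM. All H1 libraries exceeded all others, which overlapped among themselves. Means were 2.59 ± 0.341, 0.666 ± 0.321, 0.938 ± 0.364 and 0.847 ± 0.326 FPKM (SD, n = 3 each).

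PDGFD fell by 1.12 ± 0.17 at the first step (limma adjusted p = 0.000154). The later steps, 0.22 ± 0.17 (limma adjusted p = 0.268) and -0.07 ± 0.17 (limma adjusted p = 0.769), were within the spread of the libraries. The end-to-end difference of -0.97 ± 0.17 (limma adjusted p = 0.000257) lay just under 2-fold on the log2(FPKM + 1) scale. It passed 2-fold there without H1 replicate 3 (-1.02) or without CD43+ replicate 3 (-1.11). In FPKM, the H1 mean was 3.05 times the CD43+ mean. PDGFD overlaps DDI1 on the opposite strand over 4.52% of its exon bases, and DDI1 was listed at 0 in all libraries.

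Counting the members, 4 of 6 were called at the first step, with PDGFRA and PDGFRB higher and PDGFA and PDGFD lower, where 15.9% of all genes tested were called. At the second step 2 of 6 were called, PDGFA higher and PDGFRA lower, against 29.6% of all genes. At the last step 4 of 6 were called, PDGFC higher and PDGFRA, PDGFA and PDGFB lower, against 14.4% of all genes. In CD43+ against H1 cells 3 of 6 were called, PDGFRB and PDGFC higher and PDGFA lower, against 37.1% of all genes. CD31+CD34+ against H1 cells had 3 of 6 called, PDGFRB (1.79 ± 0.19, limma adjusted p = 2.89e-06) and PDGFC (1.14 ± 0.24, limma adjusted p = 0.000806) higher and PDGFA lower (-1.12 ± 0.11, limma adjusted p = 1.46e-06), against 40.1% of all genes. CD43+ against APLNR+ cells had 2 of 6, PDGFC higher (2.80 ± 0.24, limma adjusted p = 4.38e-07) and PDGFRA lower (-3.28 ± 0.12, limma adjusted p = 1.93e-10), against 33.6%. Non-overlapping libraries were found for 6, 3, 4 and 6 members in the 3 steps and from end to end, where this held for 66.0%, 75.7%, 58.0% and 76.3% of all genes, for 6 members in CD31+CD34+ against H1 cells (79.0% of all genes) and for 2 in CD43+ against APLNR+ cells (75.4%). The median change of the 6 members at the first step was 0.18, beside -0.12 for all genes tested. The differences of the 6 genes are drawn with their errors in the plot of changes by step.

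**Figure D2:**
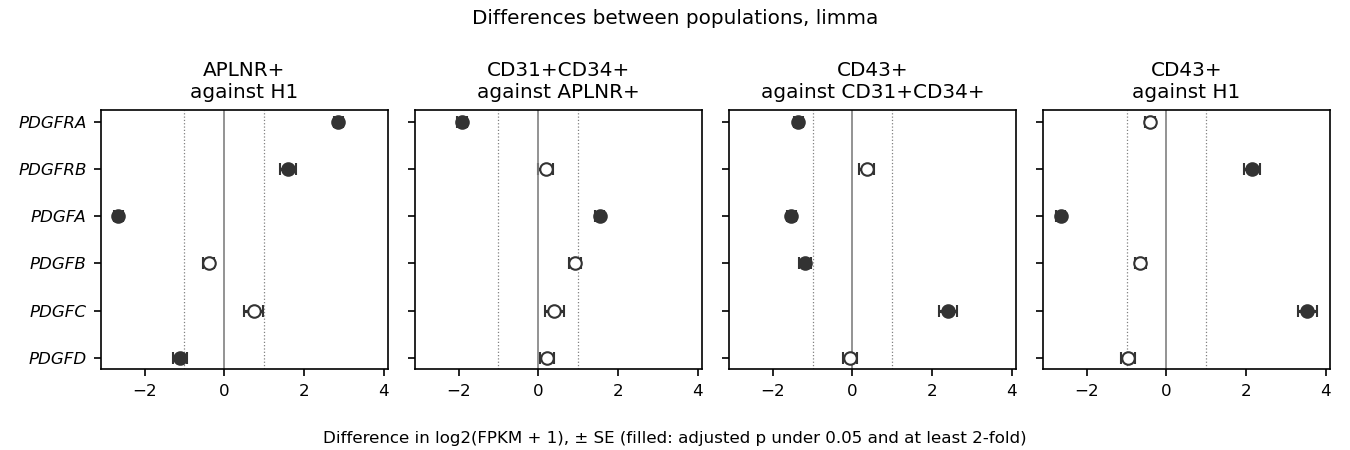
Differences in log2(FPKM + 1) with their SE from limma for the 6 PDGF genes in the 3 consecutive steps and from end to end; filled points were called (adjusted p below 0.05 and at least 2-fold), open points were not, and dotted lines mark 2-fold. At the second step PDGFRA is at -1.92 and PDGFRB at 0.19, and PDGFC at 2.40 is the member called higher at the last step.

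The ligands can be summed within a library in the same way as the receptors were compared. Together they reached 18.8 ± 0.471, 4.63 ± 0.520, 12.1 ± 1.87 and 20.9 ± 3.09 FPKM in the order of the protocol (SD, n = 3 each). The sums of the end populations overlapped, differing by 2.16 ± 1.80 FPKM (SE; exact permutation p = 0.4, adjusted 0.424), which does not show that they were equal. The ligands that made up the sum were others. PDGFA gave 75.7% ± 1.06 of it in H1 cells and 6.91% ± 1.46 in CD43+ cells, while PDGFC gave 3.46% ± 1.26 and 86.8% ± 1.60.

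Between these ends the sum was shared more evenly. In APLNR+ cells PDGFC gave 38.4% ± 11.9, PDGFA 30.7% ± 4.11, PDGFB 16.8% ± 4.85 and PDGFD 14.1% ± 5.30. In CD31+CD34+ cells PDGFA gave 50.0% ± 2.42, PDGFC 22.1% ± 7.65, PDGFB 20.0% ± 6.12 and PDGFD 7.87% ± 3.02. APLNR+ cells, which had the highest alpha receptor level, had the lowest summed ligand level. For the shares of PDGFA and PDGFC no pair of populations overlapped, each with an exact permutation p of 0.1 (adjusted 0.116). The shares of PDGFB in APLNR+ and CD31+CD34+ cells overlapped (exact permutation p = 0.6, adjusted 0.617), as did those of PDGFD in H1 and APLNR+ cells (exact permutation p = 0.8, adjusted 0.800).

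**Figure D3:**
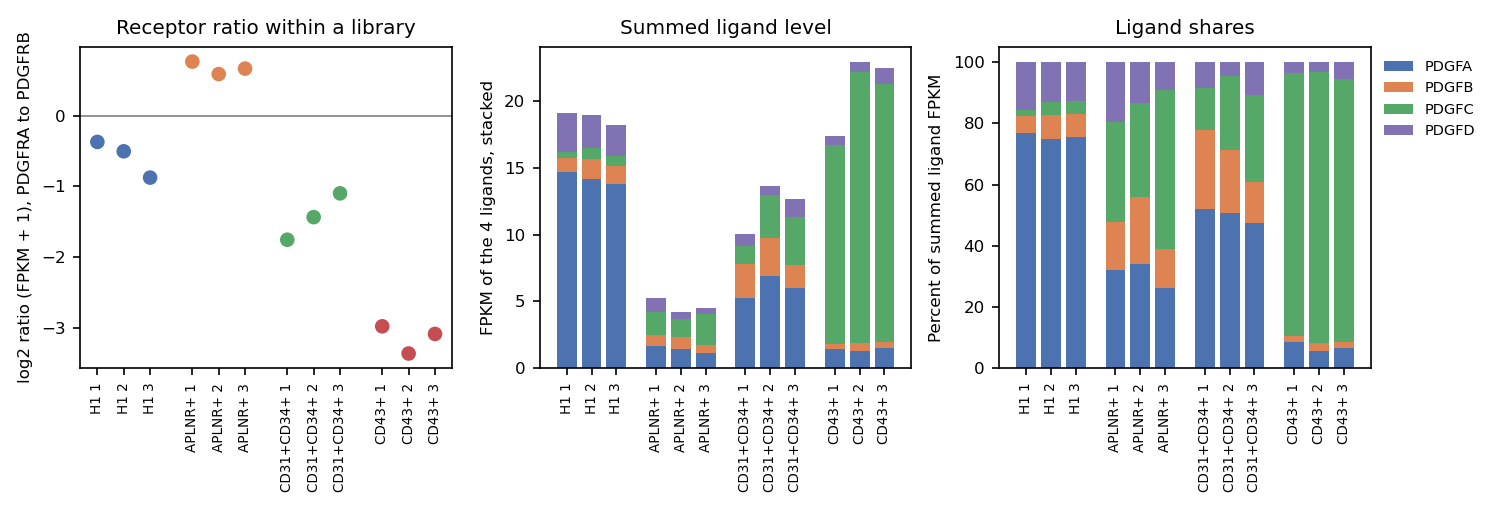
Within each library, left, the log2 ratio of PDGFRA to PDGFRB on FPKM + 1; centre, the FPKM of the 4 ligands stacked; right, each ligand as a percent of that sum. The ratio is above 0 in APLNR+ libraries alone, and the leading ligand is PDGFA in H1 libraries (74.8% to 76.9%) and PDGFC in CD43+ libraries (85.9% to 88.7%).

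Genes that process or bind PDGF were called at each step, at the second in a share close to that of all genes. This list of 11 genes holds the proteases that cut PDGF precursors, co-receptors and binding proteins, and 10 of them were tested. Of these, 4 rose and 2 fell at the first step, 3 rose and none fell at the second (limma, and none was lower at an unadjusted p below 0.05), and 1 rose and 7 fell at the last, with medians of 0.68, 0.40 and -1.19 beside -0.12, -0.01 and -0.0049 for all genes. The shares called were 60.0%, 30.0% and 80.0%, beside 15.9%, 29.6% and 14.4% of all genes. NRP1, the neuropilin co-receptor for VEGF that PDGF can also use, rose from 0.534 ± 0.119 in H1 to 18.6 ± 1.26 FPKM in APLNR+ cells (3.67 ± 0.14, limma adjusted p = 6.15e-10). PLAT, the tissue plasminogen activator that cleaves the PDGFC precursor, rose from 0.846 ± 0.174 FPKM in APLNR+ to 12.8 ± 1.08 in CD31+CD34+ cells (2.90 ± 0.11, limma adjusted p = 9.05e-10). It then fell by 1.53 ± 0.11 in CD43+ cells (limma adjusted p = 3.64e-07), at the step where PDGFC rose. LRP1, an endocytic co-receptor of PDGFRB, fell from 24.0 ± 0.577 to 5.01 ± 0.274 FPKM at that last step (-2.05 ± 0.11, limma adjusted p = 1.47e-08).

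Outside the naming rule and chosen after their values were seen, FURIN, PLAU and PDGFRL are given for their roles. FURIN, the convertase of PDGFA and PDGFB precursors, was at 3.39, 14.6, 74.8 and 36.6 FPKM on average along the protocol and was called at each step. PLAU, the urokinase that cleaves PDGFD, rose by 1.01 ± 0.09 at the first step (limma adjusted p = 1.49e-06) and fell by 1.69 ± 0.09 at the last (limma adjusted p = 2.04e-08). PDGFRL, a receptor-like gene that was too low to be tested, had means of 0.818 FPKM in H1 cells and 0.193, 0.123 and 0.108 FPKM afterwards.

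The adaptors and enzymes that bind the activated receptors (29 genes, all tested) were called in both directions, with 2 higher and 2 lower at the first step, 5 and 5 at the second and 4 and 3 at the last, and medians of 0.04, 0.14 and -0.11. The shares called, 13.8%, 34.5% and 24.1%, stood beside 15.9%, 29.6% and 14.4% of all genes, and were close to them at the first and the second step. SRC, a kinase recruited by both receptors, rose from 4.61 ± 0.478 to 32.1 ± 2.35 FPKM at the first step (2.56 ± 0.11, limma adjusted p = 2.36e-09), and GRB7, an adaptor, fell from 10.7 ± 1.12 to 3.61 ± 0.411 FPKM (-1.34 ± 0.14, limma adjusted p = 6.36e-06). STAT5A, a transcription factor that receptors and cytokines activate, rose at the second and at the last step, through means of 0.677, 14.4 and 38.1 FPKM from APLNR+ to CD43+ cells. PIK3R1, the regulatory subunit of PI3 kinase, fell at the second step (-1.38 ± 0.12, limma adjusted p = 7.61e-07), and YES1, another SRC family kinase, fell at the last one (-1.23 ± 0.11, limma adjusted p = 1.24e-06).

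The RAS-ERK and AKT kinases (15 genes) had 1 member higher and none lower at the first step, 2 higher and 2 lower at the second, and 1 lower and none higher at the last (limma). At an unadjusted p below 0.05, 1 was lower at the first step and 1 higher at the last. Their medians were -0.05, 0.23 and -0.28, and 6.67%, 26.7% and 6.67% were called, beside 15.9%, 29.6% and 14.4% of all genes. AKT1 rose from 15.5 ± 2.60 to 46.7 ± 4.80 FPKM at the first step (1.54 ± 0.12, limma adjusted p = 4.12e-07). MAPK3, also known as ERK1, rose at the second (1.33 ± 0.20, limma adjusted p = 8.53e-05). HRAS fell at the last step from 25.3 ± 3.11 to 11.7 ± 2.09 FPKM (-1.05 ± 0.13, limma adjusted p = 3.24e-05).

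Genes that restrain receptor signalling, such as ubiquitin ligases, phosphatases and Sprouty proteins (14 genes), were called lower in 1 case at the first step, higher in 5 and lower in 1 at the second, and lower in 8 at the last. None was called higher at the first or the last step (limma), where 1 and 2 were higher at an unadjusted p below 0.05. The last median was -1.19, after -0.11 and 0.53, and 7.14%, 42.9% and 57.1% were called, beside 15.9%, 29.6% and 14.4% of all genes. DUSP6, a phosphatase of ERK whose transcription follows ERK activity, fell from 103 ± 3.34 to 29.7 ± 1.98 FPKM at the first step (-1.76 ± 0.09, limma adjusted p = 5.24e-09), at which both receptors rose. PTPRE, a receptor-type tyrosine phosphatase, rose from 0.509 ± 0.220 to 16.8 ± 2.15 FPKM at the second (3.57 ± 0.16, limma adjusted p = 2.25e-09), where PTPN2, another tyrosine phosphatase, fell (-1.58 ± 0.15, limma adjusted p = 1.46e-06). SPRY4, a feedback inhibitor, fell from 27.9 ± 6.20 to 4.16 ± 0.503 FPKM at the last step (-2.47 ± 0.16, limma adjusted p = 9.36e-08).

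Growth factor early response genes, which many stimuli besides PDGF induce, rose in 12 of 20 tested cases at the first step, with a list median of 1.49, and none was lower, also at an unadjusted p below 0.05 (limma). FOS rose from 5.86 ± 0.444 to 87.4 ± 3.28 FPKM (3.69 ± 0.08, limma adjusted p = 9.42e-12). At the second step 5 rose and 4 fell, with KLF2 up by 3.22 ± 0.20 and CTGF down (-2.58 ± 0.10, limma adjusted p = 1.06e-09). At the last 3 rose and 6 fell, with FOSB up by 1.53 ± 0.10 (limma adjusted p = 1.16e-07) and KLF2 down (-2.69 ± 0.20). KLF2 could not have passed the filter on low values without its CD31+CD34+ libraries, so a peak there was partly built in. The later medians were 0.23 and -0.44, and 60.0%, 45.0% and 45.0% of the list were called at the 3 steps. Over all 7 lists, 29 of 99 tested genes were called at the first step (22 higher), 36 at the second (24 higher) and 38 at the last (9 higher), or 29.3%, 36.4% and 38.4% beside the 15.9%, 29.6% and 14.4% of all genes given above.

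**Figure D4:**
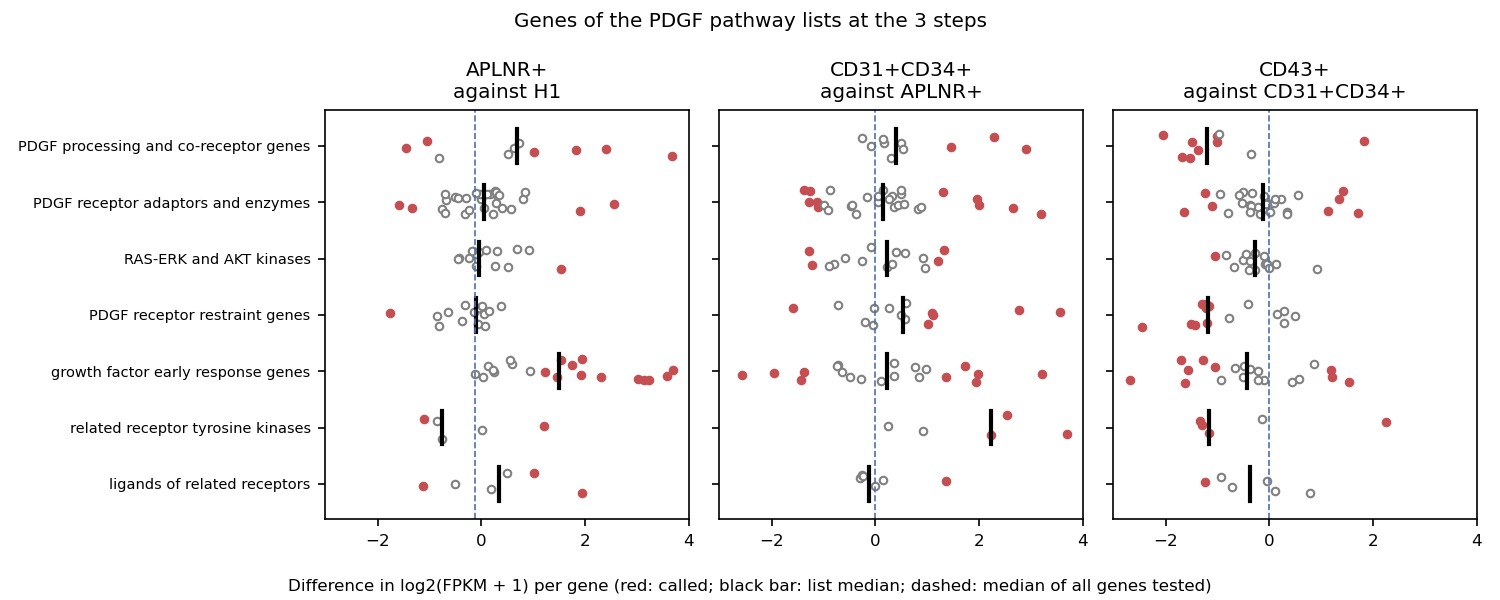
Differences in log2(FPKM + 1) for the tested genes of 7 PDGF pathway lists at the 3 steps; each point is a gene, red where called, with the list median as a black bar and the median of all genes as a dashed line. Early response genes lie to the right at the first step (median 1.49), and restraint genes and processing genes to the left at the last (medians of -1.19 each).

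Of the receptors related to PDGFRA and PDGFRB by structure, 5 of 6 were tested, of which 2, 3 and 4 were called at the 3 steps. These shares, 40.0%, 60.0% and 80.0% of few genes, stood beside 15.9%, 29.6% and 14.4% of all genes. KIT, the next gene to PDGFRA, fell at the first step (-1.11 ± 0.18, limma adjusted p = 0.000200), where PDGFRA rose. KDR, a VEGF receptor on the far side of KIT, rose at the first step (1.22 ± 0.19, limma adjusted p = 0.000196) and at the second (2.24 ± 0.19, limma adjusted p = 6.40e-07) and fell at the last (-1.31 ± 0.19, limma adjusted p = 0.000124). CSF1R, the macrophage growth factor receptor next to PDGFRB, was called at the last step, at 2.26 ± 0.10. It was at 0.231 FPKM in CD31+CD34+ and 4.84 FPKM in CD43+ cells. Only its CD43+ libraries brought it past the filter on low values, so a rise there was built in. Its call enters the share of 80.0% above. Of the other VEGF receptors, FLT1 and FLT4 rose at the second step (2.53 ± 0.15 and 3.69 ± 0.09) and fell at the last (-1.17 ± 0.15 and -1.34 ± 0.09).

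Among the 6 tested genes for ligands of these receptors, 2 rose and 1 fell at the first step, 1 rose at the second and 1 fell at the last. None fell at the second or rose at the last (limma), where 2 were lower and 1 higher at an unadjusted p below 0.05. The shares called were 50.0%, 16.7% and 16.7%, beside 15.9%, 29.6% and 14.4% of all genes. They were thus below that of all genes at the second step and close to it at the last. PGF, a VEGF relative, rose from 1.87 ± 0.302 to 10.1 ± 1.75 FPKM at the first step (1.94 ± 0.14, limma adjusted p = 2.37e-07) and fell at the last (-1.25 ± 0.14, limma adjusted p = 1.44e-05). VEGFB rose at the first step (1.01 ± 0.12, limma adjusted p = 1.85e-05) and IL34 fell (-1.14 ± 0.13, limma adjusted p = 1.02e-05). CSF1 rose at the second step (1.36 ± 0.10, limma adjusted p = 1.80e-07).

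For each member, the 3 genes with the most similar course were found by the root mean square difference of centred log2(FPKM + 1) values over the 12 libraries, as a description only. A member's own spread on this measure ranged from 0.47 (PDGFB) to 1.35 (PDGFC). Nearest to PDGFRA was IER3, at 0.18, an early response gene of the list above that was at 0.655, 12.4, 2.46 and 0.112 FPKM on average along the protocol, followed by NTN4, a netrin, and KAZN, both at 0.23. Nearest to PDGFRB were KSR1 (0.24), a scaffold of the RAS-ERK pathway, CASP10 (0.25), an initiator caspase, and EFS (0.25), a docking protein of SRC family kinases. KSR1 was at 7.20, 20.0, 24.5 and 32.7 FPKM on average along the protocol.

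Nearest to PDGFA were FAM46B (0.27), CLDN7 (0.34), a tight junction protein, and ITGA6 (0.34), an integrin chain that was at 42.7, 4.80, 10.4 and 3.69 FPKM. Nearest to PDGFC were IKZF1 (0.28), the lymphoid and blood transcription factor Ikaros, which was at 0.261, 0.834, 1.10 and 10.01 FPKM, then IFIT2 (0.28), an interferon-induced gene, and NOSTRIN (0.31), which was listed at 0 in 2 libraries. PDGFB lay near AC144652.1 (0.12), a long noncoding RNA, CELSR2 (0.15) and HRAS (0.15), and PDGFD near KCNMA1 (0.15) and KCNN2 (0.18), both potassium channels, and the antisense gene GNAS-AS1 (0.17), which is uncertain since counting by strand is not stated. Small distances are easier to reach for PDGFB and PDGFD, whose own spread was small. No member was among the nearest genes of another, and the closest pair of members, PDGFB and PDGFD, were 0.61 apart.

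**Figure D5:**
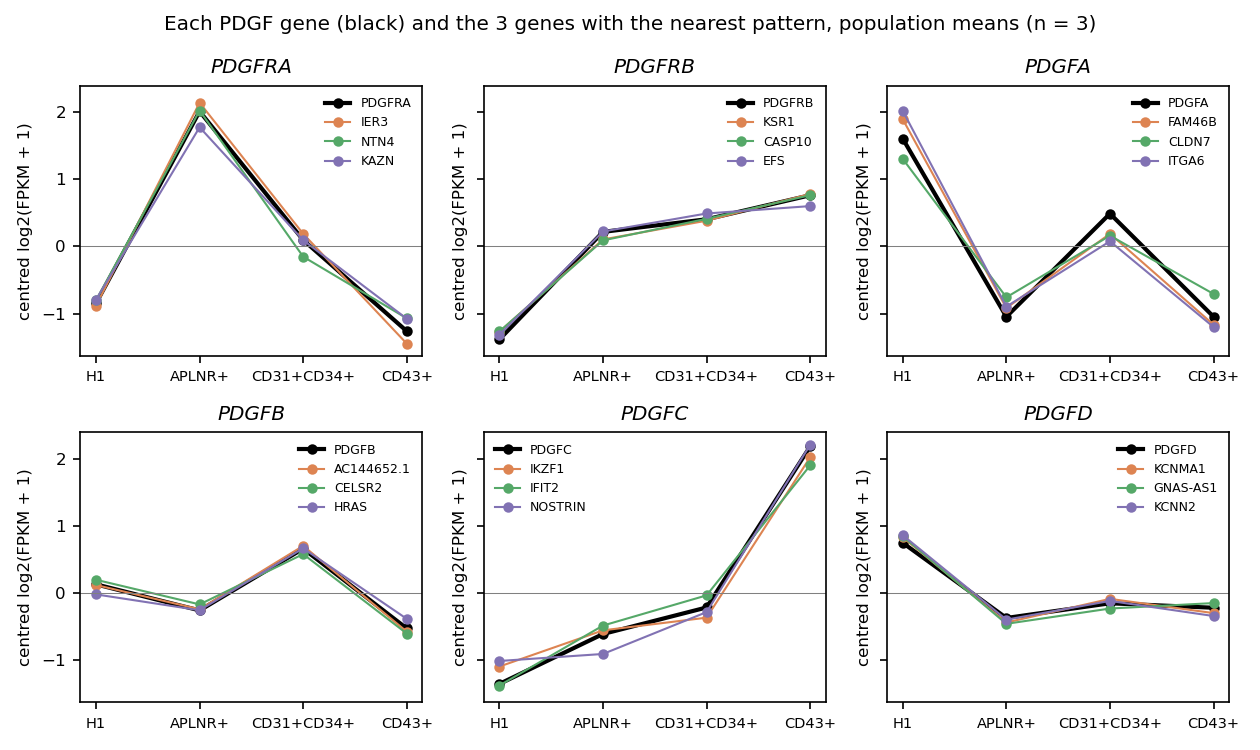
Centred log2(FPKM + 1), as population means (n = 3), of each PDGF gene in black and of the 3 genes nearest to it over the 12 libraries. Each panel shows a course of its own, with single peaks in APLNR+ cells for PDGFRA and in CD43+ cells for PDGFC.

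As a check of the labels, the pluripotency markers (7 genes) summed to 2272 to 2370 FPKM in H1 libraries and to 672 to 760, 362 to 446 and 177 to 207 FPKM in the later populations. The libraries summed to between 567793 and 1564450 FPKM and had 12297 to 13060 genes at 1 FPKM or more. Read depth is not given, and the lowest nonzero values put it, relative to CD43+ replicate 3, between 0.556 (CD31+CD34+ replicate 1) and 1.27. Replicates correlated at r = 0.966 to 0.990 over genes and none were identical. The labels do not tie the replicates to separate cultures, so the p-values measure the spread between these libraries, which may be technical.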

How the data were processed

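Total RNA of 12 libraries was made into TruSeq libraries, per the labels. The deposited table gives FPKM values per gene symbol, which the authors computed from aligned reads. Their processing notes name BWA, Bowtie, RSEM and the build hg19, without roles or versions. The depth of each library is not given and its number of fragments limits low values.

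Here 1 line of text was left out, and genes with at least 1 FPKM in at least 3 libraries (14840) were tested on log2(FPKM + 1) with limma 3.58.1 (R 4.3.3; all 4 populations in 1 fit, trended empirical Bayes, Benjamini-Hochberg adjustment over all genes in each of 6 comparisons). A call needed an adjusted p below 0.05 and a 2-fold change. Ratios and shares within a library were compared by exact two-sided permutation tests. The fit was tested on simulated data. Alternatives were a pseudocount of 0.1, quantile normalization and other scalings, filters, refits without each library, and a replicate block.

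Replicate numbers come from the sample titles. Deviations from the population means of same-numbered libraries correlated between -0.0214 and 0.429, with 12 of 18 pairs above 0.1. All 3 pairs passed 0.1 for CD43+ against CD31+CD34+ and CD43+ against H1 cells. Libraries of different numbers correlated between -0.404 and 0.289, with 7 of 36 pairs above 0.1. The labels do not say what a number shares. The main fit and the permutation tests did not use pairs, and the replicate block was an alternative fit only.

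The members, the pathway and marker lists and the tests were chosen with earlier results of these data known. Named were all members, the called list genes with the largest rise and fall per step (higher mean at least 10 FPKM), any called related receptor or ligand, and the 3 nearest genes per member. The values of 1 gene that this rule names are not reported here. Promoter windows are from RefSeq GRCh38.p14 and gene positions from GENCODE v29, not from the build of the table.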

Additional observations from a re-analysis of the deposited data

How the results depend on the processing

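Over the 3 steps and from end to end, the 6 members gave 24 differences, and no called one lost its call or changed sign under the alternatives run. A minimum mean of 5 FPKM left PDGFB and PDGFD without a value. With a pseudocount of 0.1, calls were gained for PDGFC at the first step (1.34), PDGFB at the second (1.50), and PDGFB (-1.34) and PDGFD (-1.55) in CD43+ against H1 cells, and the log2 ratio of PDGFRA to PDGFRB moved to -2.32 (CD43+ against CD31+CD34+) and -3.14 (CD43+ against H1). Quantile normalization gave a call for PDGFB at the second step (1.08). Leaving out each library in turn, PDGFB at the second step ranged from 0.82 to 1.07, and PDGFD from -0.21 to 0.077 at the last step, changing sign without CD31+CD34+ replicate 3 (0.077) or CD43+ replicate 1 (0.018). PDGFC at the second step ranged from 0.22 to 0.70 and PDGFRB at the last from 0.23 to 0.57. The limma adjusted p of the first-step differences of PDGFB and PDGFC, which were under 2-fold on the log2(FPKM + 1) scale, rose to as much as 0.122 (PDGFB, without APLNR+ replicate 3) and 0.0735 (PDGFC, without APLNR+ replicate 3). PDGFD from end to end ranged from -1.11 to -0.88. The percent of PDGFD in the summed ligands, APLNR+ less H1, ranged from -2.51 to 2.77 percentage points and was below 0 without APLNR+ replicate 1 (-2.51), H1 replicate 2 (-0.0583) or H1 replicate 3 (-0.255). PDGFA in CD43+ against APLNR+ cells, which was not called, ranged from -0.077 to 0.074 and changed sign without APLNR+ replicate 3 (-0.077), CD43+ replicate 1 (-0.015) or CD43+ replicate 3 (-0.028). Against H1 cells, CD31+CD34+ cells lost the call of PDGFA under quantile normalization (-0.98) and that of PDGFC without CD31+CD34+ replicate 3 (0.96), and gained that of PDGFRA with a pseudocount of 0.1 (1.25) and quantile normalization (1.11). The cause of these shifts was not tested. With no minimum change, 65, 79, 71 and 86 pathway genes passed at the 3 steps and from end to end in place of 29, 36, 38 and 46, since the test of size was dropped.

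A fit with the replicate block was made for 40 results, the member differences and the counts of called pathway list genes. No member difference gained or lost its call, and the counts stayed within the tolerance set for them. Every population has the same replicate numbers, so the block cannot change a difference between populations. The differences, for example 2.40 for PDGFC at the last step and 2.15 for PDGFRB from end to end, were therefore the same by design. Only the errors and p-values, and with them the counts, could move, so the refit does not check the sizes of the differences. Depth limits the lowest levels, those of PDGFB and PDGFD, of PDGFC in H1 cells and of PDGFRA in CD43+ cells. There the change is also understated by the pseudocount. The results do not show whether protein levels, receptor activity or the cells that make each ligand differ, since only RNA of whole populations was measured.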
